A study of Rattus norvegicus with 6 samples.

Results

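The miRNAs examined were 8 mature miRNAs cut from a cluster of hairpins inside the rat gene Clcn5, namely rno-miR-532-5p, rno-miR-532-3p, rno-miR-500-3p, rno-miR-501-5p, rno-miR-501-3p, rno-miR-362-5p, rno-miR-362-3p and rno-miR-188-5p. They were chosen by name, as mature miRNAs of hairpins in this gene, and all 8 were present among the 775 miRNAs of the deposited count table. The small RNA libraries came from tissue labelled as brain, which a legend of the study calls cortical, of male Sprague-Dawley rats bought at 7 weeks of age, in which both common carotid arteries had been tied (2-vessel occlusion, 2VO, a model of vascular dementia). The 2VO group (3 libraries) received only the vehicle, 0.5% carboxymethylcellulose sodium at 5 mL/kg, by gastric tube for 4 weeks. In the tilianin group (3 libraries), 2VO rats received 40 mg/kg of the flavonoid glycoside tilianin daily in that vehicle over the same period. All 6 libraries therefore carry the occlusion, and the question they address is which brain miRNAs differ with tilianin. The sources used here do not say whether a library is 1 rat, so p-values measure the spread between libraries, and bulk tissue cannot separate fewer cells of a type from less RNA per cell.

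A miRNA is cut from a hairpin in a longer transcript, and either strand (the 5p or the 3p arm) can be loaded into an Argonaute protein, where its bases 2 to 8, the seed, pair with target mRNAs. Clcn5 encodes an endosomal chloride/proton exchanger whose loss causes a kidney tubule disease, Dent disease, in people. The miRNAs in it are conserved among mammals and are widely expressed at low levels. Among them miR-501-3p is known in hippocampal neurons for its action on the glutamate receptor subunit GluA1, and miR-188-5p for its action on neuropilin-2 and dendritic spines.

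In the RefSeq annotation of the assembly GRCr8, the 5 hairpins lie on chromosome X on the plus strand, which is also the strand of Clcn5, in the order Mir532, Mir188, Mir362, Mir501, Mir500, over 11.5 kb. Mir532 and Mir188 are separated by 321 bases, Mir362 follows after 6820 bases, Mir501 after another 639 and Mir500 after 3374. The gene table gives only gene bounds, so the position relative to Clcn5 exons was not examined. A sixth miRNA gene, Mir3560, lies between Mir362 and Mir501, and its mature miRNA had 1 count in the 6 libraries together.

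The mature sequences below show which members share a seed and how close miR-501-3p and miR-500-3p are. They were taken from RefSeq (GRCr8), which held 7 of the 8 members, and are written 5′ to 3′ with the seed in capitals. The other arms of Mir188 and Mir500 are shown because they complete the arm comparison, and miR-329-3p and miR-511-5p because they carry the seed of a member.
miR-362-3p: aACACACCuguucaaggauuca
miR-329-3p: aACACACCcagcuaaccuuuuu
miR-501-3p: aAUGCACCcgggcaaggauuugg
miR-500-3p: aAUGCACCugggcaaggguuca
miR-501-5p: aAUCCUUUgucccuggguga
miR-500-5p: aAUCCUUGcuaucugggugcuuag
miR-532-5p: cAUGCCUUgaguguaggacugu
miR-511-5p: cAUGCCUUuugcucugcacuc
miR-532-3p: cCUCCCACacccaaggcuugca
miR-188-3p: cUCCCACAugcaggguuugc
miR-188-5p: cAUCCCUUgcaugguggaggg

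Within the cluster, miR-501-3p and miR-500-3p had the same seed, AUGCACC. Over their first 22 bases they differed at 4 positions, C9U, A18G, U21C and G22A, written with the miR-501-3p base first and counted from the 5′ end. How the authors' counting treated reads that fit both is not stated, so each value is uncertain to that extent. Some listed rows, such as let-7a-1-3p and let-7c-2-3p, had identical counts in every library, so a read could be counted in more than 1 row. The 5p arms of Mir501 and Mir500 were less alike and differed already in the last seed base (U8G). miR-532-3p and miR-188-3p hold the same run CUCCCAC, placed 1 base further to the 5′ end in miR-188-3p, so their seeds differ.

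Total counts were 7428890 to 13198776 per 2VO library and 7175872 to 9464216 per tilianin-treated library. Levels are given in CPM, the count scaled by the effective (TMM) library size, on which 3 counts, the limit taken for a count of 0, correspond to 0.232 to 0.462 CPM (counting error only). Tilianin-treated replicate 2 stood apart, since its rank correlations with the other libraries across the 454 tested miRNAs reached at most 0.957, whereas the highest correlation of each other library lay between 0.985 and 0.992. Markers of neurons, the defining cells of the labelled tissue, were all counted, and their 8 miRNAs summed to 135259 to 168323 CPM across the 2VO libraries and to 150241, 89247 and 164820 CPM across tilianin-treated replicates 1, 2 and 3. Markers of other cell types and tissues, summed by list, were highest in treated replicate 2, though not every single marker was. The summed level of 4 erythroid miRNAs was 155 to 199 CPM without tilianin, against 406, 881 and 338.1 CPM across treated replicates 1, 2 and 3. Only 2 of these had enough counts to be tested, and the sum was mostly miR-486 (fitted log2 change 1.68). miR-144-3p overlapped between the groups (0.232 to 2.29 CPM against 0.326, 3.54 and 0.488 CPM, fitted log2 change 0.60). For 3 myeloid miRNAs the sum was 326 to 456 CPM and then 496, 746 and 457 CPM. Most of it was miR-142-5p, which overlapped between the groups (445 CPM in 2VO replicate 3 against 444 CPM in treated replicate 3). miR-142-3p overlapped as well, and miR-223-3p did not. The sum of 4 miRNAs of the Hox clusters (miR-196b-5p at 0 everywhere) was 89.8 to 149 CPM and then 321, 21658 and 489 CPM. The sums of these 3 lists were higher in every treated library than in every 2VO library, narrowly for the myeloid list. This held with DESeq2's size factors and library totals too, so leaving out replicate 2 does not remove the difference in these sums. The sums of 3 further lists overlapped. For 4 choroid plexus miRNAs they were 120 to 152 CPM against 349, 1078 and 123 CPM. Yet miR-211-5p (1.31 to 1.78 against 4.13, 8.47 and 3.30 CPM) and miR-204-3p (0 to 0.617 against 1.41, 4.00 and 0.854 CPM) did not overlap. miR-204-5p did, and miR-449a-5p had a fitted log2 change of -0.59. For 4 muscle miRNAs the sums were 88.5 to 131 CPM against 182, 492 and 121 CPM. For 4 oligodendrocyte miRNAs they were 18.2 to 35.3 CPM against 31.8, 50.5 and 17.5 CPM. Of these, miR-1-3p and miR-219a-5p had at most 1 count per library, while miR-1b (158 to 1969 CPM) and miR-219b (260 to 1368 CPM) were not listed. The part of these tissues and cell types in the values below was not tested, and the fitted changes of the members are given with and without replicate 2.

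Across the cluster, no member changed between the groups under the study's criterion of an unadjusted p-value under 0.05 with a log2 fold change beyond 1 in size. By edgeR's quasi-likelihood test 0 of 8 members passed in the upward direction, where 4.63% of all tested miRNAs did, and 0 passed downward, where 1.10% did. The rows behind these shares are not all independent, since some hold nearly the same counts, such as miR-133a-3p and miR-133c, which both passed upward. At an unadjusted p under 0.05 alone the count was also 0 of 8, against 7.27% of all tested miRNAs, and DESeq2's Wald test and limma-voom likewise gave 0. The members' adjusted p-values from edgeR lay between 0.652 and 0.871, and the smallest of all tested miRNAs was 0.397. The fitted log2 fold change was positive for 7 of the 8 members, with a median of 0.34, and positive for 46.7% of all tested miRNAs, with a median of -0.03. Without tilianin-treated replicate 2 the members' median was 0.07.

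**Figure D1:**
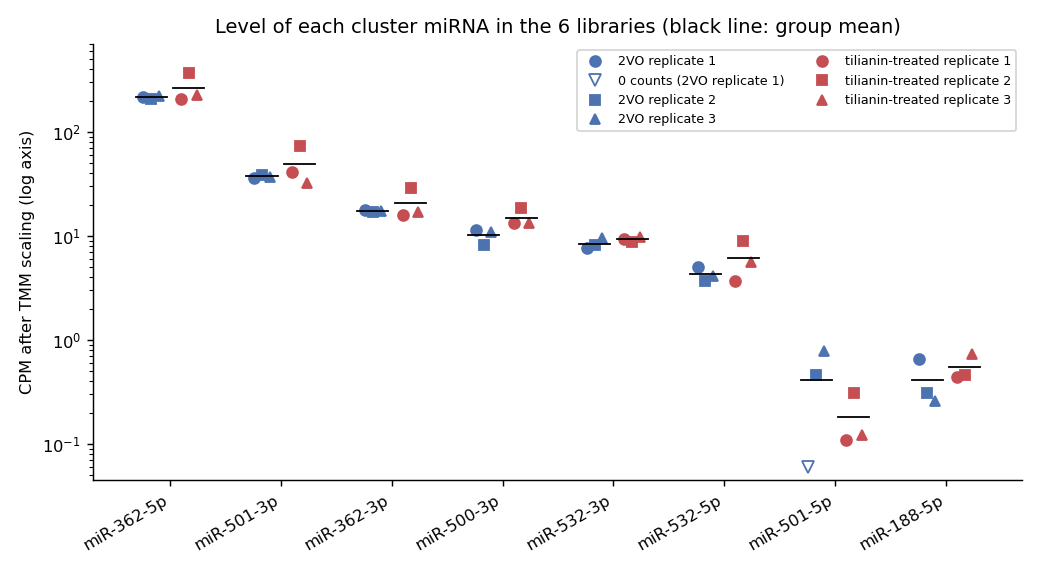
Level of each cluster miRNA in CPM after TMM scaling (log axis), with 2VO libraries in blue, tilianin-treated libraries in red, a symbol per replicate, a black line at each group mean and an open triangle at the bottom for the library without a count of miR-501-5p. miR-362-5p lies above 200 CPM in every library and miR-501-5p and miR-188-5p lie under 1 CPM, and tilianin-treated replicate 2 is the highest point for 5 of the 8 miRNAs.

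The hairpin Mir362 gave most of the cluster's counts. Its 2 arms together held 76.4% to 79.7% of the summed counts of the 8 members in every library. miR-362-5p, known in tumour cells for its action on the NF-κB inhibitor CYLD, had 217, 208 and 223 CPM across 2VO replicates 1, 2 and 3 against 205, 370 and 225 CPM across tilianin-treated replicates 1, 2 and 3. Thus 5 libraries were close together and tilianin-treated replicate 2 was 1.71-fold above their median. The group means were 216 ± 7.78 CPM and 267 ± 90.0 CPM (SD, n = 3 each). The fitted log2 change was 0.31 (standard error 0.263), with a 95% interval from -0.31 to 0.92 that stays under the study's fold change threshold, and an unadjusted p of 0.283 by edgeR's quasi-likelihood test. Without tilianin-treated replicate 2 the fitted log2 change was 0.01 (standard error 0.172).

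The other arm, miR-362-3p, known to act on the adaptor protein p130Cas together with miR-329, had 17.5, 17.1 and 17.2 CPM across the 2VO libraries against 15.9, 29.0 and 17.1 CPM across the treated ones. It repeated the pattern of the 5p arm, with treated replicate 2 at 1.69-fold the median of the other libraries. The fitted log2 change was 0.25 (standard error 0.275) and the 95% interval ran from -0.39 to 0.90. Without treated replicate 2 it was -0.05 (standard error 0.209), so that the sign rests on this library. Among the 2VO libraries the spread was small for both arms, with coefficients of variation of 3.60% for miR-362-5p and 1.45% for miR-362-3p, where counting error alone gives 2.16% and 7.63%.

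From the hairpin Mir501, the member with the second highest level was miR-501-3p. It had 36.2, 38.8 and 37.1 CPM across the 2VO libraries against 41.3, 72.5 and 32.3 CPM across tilianin-treated replicates 1, 2 and 3. The treated libraries lay on both sides of the 2VO libraries, and replicate 2 was 1.95-fold the median of the others. The fitted log2 change was 0.38 (standard error 0.308, 95% interval -0.35 to 1.11) and fell to -0.00438 (standard error 0.201) without treated replicate 2. miR-501-5p had 0, 6 and 6 counts in the 2VO libraries and 1, 2 and 1 counts in the treated libraries, or at most 0.776 CPM. Over each group these are 12 and 4 counts, a ratio of tilianin-treated to 2VO of 0.417 with an exact 95% interval for counting error of 0.0979 to 1.37, so a difference was not detectable at this depth. The fitted log2 change, which depends on these few counts, was -1.19, and -1.68 without treated replicate 2.

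miR-500-3p, the seed partner of miR-501-3p, was the sole member whose groups did not overlap. It had 11.3, 8.10 and 11.0 CPM across 2VO replicates 1, 2 and 3 against 13.4, 18.3 and 13.2 CPM across the treated libraries, from 85 to 123 counts each. All treated libraries lay above all 2VO libraries, with TMM, with DESeq2's size factors and with library totals. This is 1 of 8 members, and 5.51% of all tested miRNAs were likewise higher without overlap. The means were 10.1 ± 1.78 CPM and 15.0 ± 2.92 CPM (SD, n = 3 each), and the fitted log2 change was 0.56 (standard error 0.252, 95% interval -0.03 to 1.15). It did not pass the criterion, with an unadjusted p of 0.0609 and an adjusted p of 0.652 by edgeR's quasi-likelihood test, and an exact permutation test (two-sided) returned p = 0.1, the smallest that 3 against 3 libraries allow. Without treated replicate 2 the fitted log2 change was 0.41 (standard error 0.245), and its unadjusted p over the other 7 alternatives that used all libraries lay between 0.0508 and 0.114 (edgeR, DESeq2 or limma). The ratio of miR-501-3p to miR-500-3p counts was 3.19, 4.79 and 3.38 in the 2VO libraries and 3.09, 3.96 and 2.45 in the treated ones, so it overlapped between the groups.

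**Figure D2:**
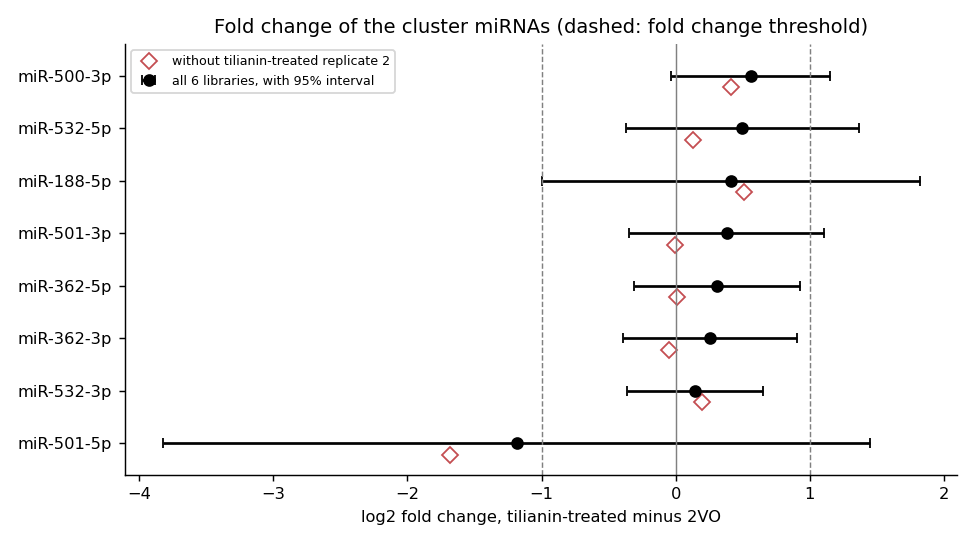
Log2 fold change of each cluster miRNA, tilianin-treated minus 2VO, from edgeR's quasi-likelihood fit with all 6 libraries (black points, bars are 95% intervals) and without tilianin-treated replicate 2 (open red diamonds), with dashed lines at the fold change threshold. All 8 intervals include 0, and the diamonds of miR-362-5p, miR-362-3p and miR-501-3p lie at 0.01, -0.05 and -0.00438.

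The hairpin Mir532 stands first in the cluster and was counted at far lower levels than Mir362, although both lie in the same gene. miR-532-5p, described in melanoma as acting on the transcription factor RUNX3, had 5.01, 3.70 and 4.14 CPM across the 2VO libraries against 3.69, 8.93 and 5.62 CPM across the treated ones. Treated replicate 2 was the highest of all 6 libraries, and the other treated libraries lay within or close to the 2VO range. The fitted log2 change was 0.50 (standard error 0.369, 95% interval -0.37 to 1.37), and 0.13 (standard error 0.328) without treated replicate 2. miR-532-3p, known in heart muscle cells for its action on the apoptosis repressor ARC, had 7.63, 8.10 and 9.44 CPM across the 2VO libraries against 9.34, 8.78 and 9.64 CPM across the treated ones. Here treated replicate 2 was not raised and stood at 0.940-fold the median of the other libraries. The fitted log2 change was 0.14 (standard error 0.215, 95% interval -0.36 to 0.65), and 0.20 (standard error 0.239) without treated replicate 2. In each library miR-362-5p had 40.2 to 56.1 times the counts of miR-532-5p.

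miR-188-5p had the fewest counts beside miR-501-5p, with 6, 4 and 2 counts in the 2VO libraries and 4, 3 and 6 in the treated libraries. In CPM these were 0.654, 0.309 and 0.259 and then 0.434, 0.462 and 0.732, and the groups overlapped. Over each group the 12 and 13 counts give a ratio of tilianin-treated to 2VO of 1.35, with an exact 95% interval for counting error of 0.570 to 3.25. A difference was not detectable at this depth, with a fitted log2 change of 0.41 (standard error 0.597), and of 0.51 (standard error 0.750) without treated replicate 2. Most reads of this hairpin came from the other arm, miR-188-3p, with 8.50, 5.09 and 5.56 CPM across the 2VO libraries against 5.32, 7.39 and 8.18 CPM across the treated ones. Its fitted log2 change was 0.12 (standard error 0.308), and 0.09 (standard error 0.336) without treated replicate 2.

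Arm use differed widely between the hairpins and little between the libraries, apart from Mir532. The comparison needs no scaling, since both arms are counted in the same library, and the exact 95% binomial intervals cover counting error only. The 5p arm of Mir362 held 92.5% (91.3 to 93.6), 92.4% (91.4 to 93.4) and 92.8% (91.6 to 94.0) of the counts of both arms in the 2VO libraries, and 92.8% (91.6 to 93.9), 92.7% (91.7 to 93.7) and 93.0% (91.7 to 94.0) in the treated libraries. All 6 intervals share the range from 91.7% to 93.4%, and tilianin-treated replicate 2, in which both arms were raised, was no exception. The 3p arm led in the other hairpins of this comparison in all libraries, apart from Mir532 in one. It held 98.0% to 100% for Mir501, 96.6% to 100% for Mir500 and 91.8% to 95.6% for Mir188. In the libraries without any miR-501-5p count (2VO replicate 1) and without any miR-500-5p count (treated replicate 3), the interval of the 5p share reached up to 1.10% and 3.36%.

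For Mir532 the 5p share was 39.7%, 31.4% and 30.5% in the 2VO libraries and 28.3%, 50.4% and 36.8% in treated replicates 1, 2 and 3. Treated replicate 2 had 58 counts of the 5p arm and 57 of the 3p arm, with an interval of 41.0% to 59.9%. This lies above the intervals of treated replicate 1 (20.5% to 37.3%), 2VO replicate 2 (24.1% to 39.4%) and 2VO replicate 3 (21.9% to 40.2%), and overlaps those of 2VO replicate 1 (30.7% to 49.2%) and treated replicate 3 (28.4% to 45.9%). The group means were 33.8 ± 5.06% and 38.5 ± 11.2% (SD, n = 3 each), a difference smaller than the spread within the treated group, and no test was made of it. Leaving out treated replicate 2 turned the direction, since the mean log2 ratio of 5p to 3p, tilianin-treated minus 2VO, was 0.28 with all libraries and -0.08 without it.

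**Figure D3:**
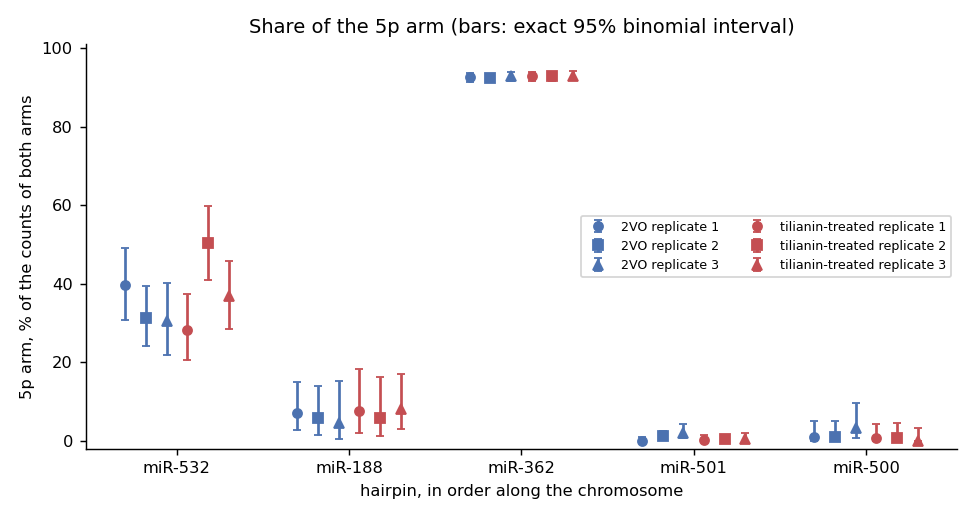
Share of the 5p arm in the counts of both arms of each hairpin, in percent, for each library (blue 2VO, red tilianin-treated), with bars for exact 95% binomial intervals. Mir362 sits at 92.4% to 93.0% in every library, Mir501, Mir500 and Mir188 lie under 10%, and Mir532 spreads from 28.3% to 50.4%.

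Summed over the 8 members, the cluster had 295, 284 and 303 CPM across the 2VO libraries against 289, 509 and 304 CPM across tilianin-treated replicates 1, 2 and 3, or 0.0279% to 0.0460% of a library's counts. Apart from treated replicate 2, the libraries of both groups lay between 284 and 304 CPM. The group means were 294 ± 9.48 CPM and 367 ± 122 CPM (SD, n = 3 each), a log2 ratio of 0.32, which was 0.03 without treated replicate 2. No test was made of this sum, because the members may come from 1 transcript. The composition of the sum moved little, with miR-362-5p at 70.9% to 74.1% of it and miR-501-3p at 10.6% to 14.3% across the 6 libraries.

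Tilianin-treated replicate 2 was the highest of the 6 libraries for 5 of the 8 members, and it was so for 33.0% of all tested miRNAs. Against the 2VO mean it stood at 1.71-fold for miR-362-5p, 1.68-fold for miR-362-3p, 1.94-fold for miR-501-3p, 1.81-fold for miR-500-3p and 2.08-fold for miR-532-5p. miR-532-3p, at 1.05-fold, was the exception among the 6 members with at least 10 counts in every library. In the other 5 libraries these 6 members lay between 0.799-fold and 1.32-fold. The summed Hox-cluster, choroid plexus, erythroid, myeloid, muscle and oligodendrocyte miRNAs were also highest in this library and the neuronal ones lowest. The erythroid, Hox-cluster and, narrowly, myeloid sums were in addition higher in all 3 treated libraries than in all 2VO libraries. So was miR-500-3p. Of the 4 choroid plexus miRNAs, miR-211-5p and miR-204-3p were too. However, miR-204-5p and the sum of that list overlapped between the groups, and miR-449a-5p had a fitted log2 change of -0.59. The part of these tissues and cell types in the result was not tested.

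**Figure D4:**
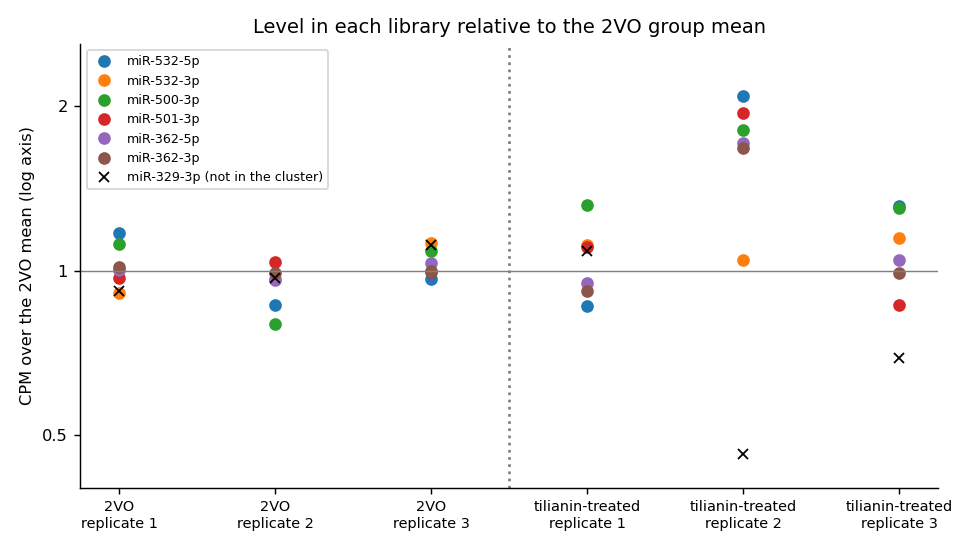
CPM of the 6 cluster miRNAs with at least 10 counts in every library (coloured points) and of miR-329-3p (black crosses), divided by the 2VO group mean of each miRNA (log axis), by library. In tilianin-treated replicate 2, 5 of the 6 cluster miRNAs lie between 1.68 and 2.08, miR-532-3p at 1.05 and miR-329-3p at 0.461.

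The seed of miR-362-3p, ACACACC, is shared with miR-329-3p, which is made from a different, imprinted locus and is abundant in neurons. miR-329-3p had 303, 320 and 368 CPM across the 2VO libraries against 359, 152 and 229 CPM across treated replicates 1, 2 and 3, so its lowest library was the one with the most miR-362-3p. Its fitted log2 change was -0.42 (standard error 0.321) and did not pass the criterion, with an unadjusted p of 0.230 by edgeR's quasi-likelihood test. Without treated replicate 1 the fitted log2 change was -0.77 (unadjusted p 0.0195 and adjusted p 0.439 by the same test). That change was still short of the fold change threshold, and without treated replicate 2 the fitted log2 change was -0.15. miR-362-3p made up 5.48%, 5.06% and 4.47% of the counts with this seed in the 2VO libraries and 4.23%, 16.0% and 6.96% in treated replicates 1, 2 and 3. The group ranges overlapped, and the highest share was again in replicate 2. miR-511-5p, with the seed of miR-532-5p and made from the gene of the macrophage mannose receptor, had 0 to 4 counts per library. Among the 689 of 775 listed miRNAs with a RefSeq sequence, no further one had the seed of any of the 7 members with a sequence.

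Beyond the cluster, 43 other miRNAs known to lie on chromosome X were listed, 34 of which were tested. Of these 3 rose and 0 fell under the study's criterion (4.63% and 1.10% of all tested miRNAs), with a median log2 fold change of -0.10, and 15 had a positive and 19 a negative fold change. The 3 that rose, miR-448-3p (2.81, standard error 1.05), miR-1298 (3.26, standard error 1.18) and miR-1912-3p (3.94, standard error 1.31), lie within the serotonin receptor gene Htr2c, which is strongly expressed in choroid plexus. They were highest in treated replicate 2, with 2614, 9625 and 622 counts there, and the groups overlapped for each. Without that library their fitted log2 changes were 0.83, 1.08 and 1.68, and miR-448-3p and miR-1298 no longer passed. These same 2 were also lost without 2VO replicate 1 and with the replicate block, and none of the 3 passed without 2VO replicate 2, without 2VO replicate 3 or by limma-voom.

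The tested miRNAs outside the cluster with the profile nearest to that of the summed members were miR-30b-5p, miR-21-5p, miR-134-5p, miR-100-3p and miR-30c-2-3p. Likeness was the root mean square difference of log2(CPM + 1), centred on its mean over the 6 libraries, and was 0.0937 for miR-30b-5p and 0.108 for miR-100-3p. miR-30b-5p had 18.6, 19.9 and 21.1 CPM across the 2VO libraries against 21.9, 32.2 and 20.3 CPM across the treated ones, and miR-134-5p had 116, 94.3 and 113 CPM and then 105, 173 and 120 CPM. miR-21-5p and miR-100-3p were counted at means of only 0.327 and 1.30 CPM. The 5 were chosen for their likeness to a sum that is highest in treated replicate 2, so that their own high values there follow from the choice.

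**Figure D5:**
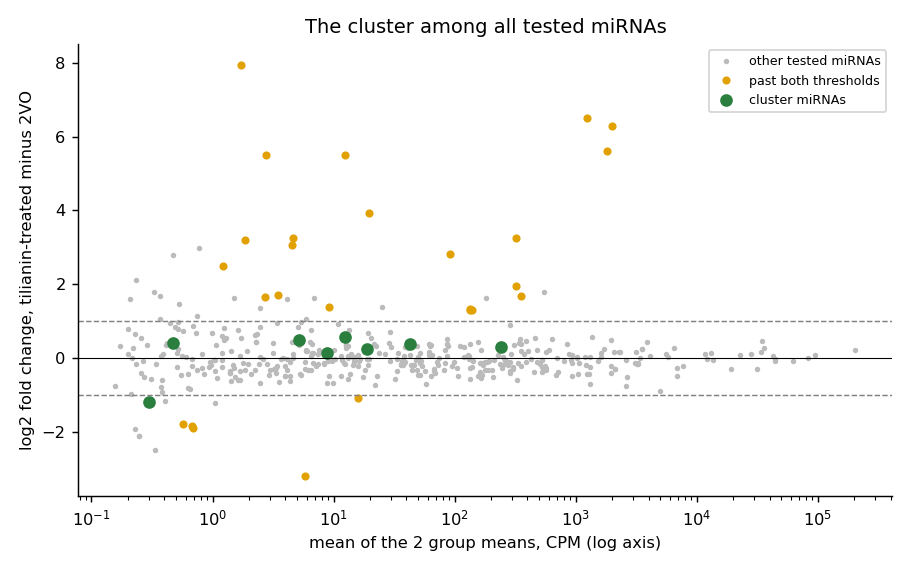
Log2 fold change of all 454 tested miRNAs, tilianin-treated minus 2VO, against the mean of both group means in CPM (log axis), with cluster miRNAs in green, those past both thresholds in orange and dashed lines at the fold change threshold. Of the 8 cluster miRNAs, 7 lie between 0.14 and 0.56 and miR-501-5p, with at most 6 counts per library, lies at -1.19, all without passing both thresholds.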

How the data were processed

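Small RNA of 6 rat brain libraries was made with TruSeq Small RNA kits. The authors deposited unnormalized counts of reads on mature miRNAs. The submitters' processing notes name FastQC 0.11.2, Trimmomatic 0.36, cutadapt 1.14 and DESeq2 1.12.4. The aligner, counting program, miRNA reference and build are not given in the sources used here. Titles gave the groups, and library codes tied columns to samples. The members and lists were chosen with earlier results of these data known. The text names the members, the other arms of their hairpins, seed relatives, called miRNAs of the X list and the 5 nearest profiles. Mir3560, the library that stood apart and the single miRNAs named with the tissue lists were picked after their values were seen.

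From the counts, miRNAs with at least 10 in total (454) were tested with edgeR 4.0.16 (TMM, quasi-likelihood, group as the single term, Benjamini-Hochberg adjustment over all of them) in R 4.3.3. Standard errors and 95% intervals are approximate, computed from each fold change with its F value. Exact permutation tests used log2(CPM + 1), and binomial intervals came from scipy 1.17.1. The alternatives were DESeq2's size factors, library totals, DESeq2 1.42.0, limma-voom (limma 3.58.1), no filter, filterByExpr, the replicate block and each library left out. The code was tested on simulated data. Replicate pairs differed by more than sampling noise. Lists of neuron, oligodendrocyte, erythroid, myeloid, choroid plexus, muscle and Hox-cluster miRNAs served to check the tissue. No sham library was analysed here.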

Additional observations from a re-analysis of the deposited data

How the results depend on the processing

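The cluster's count of 0 members past both thresholds, and of 0 with an unadjusted p under 0.05, was the same under every alternative run, including each library left out. Of 102 values of single members under these alternatives, 100 kept their direction and 2 reversed, both without tilianin-treated replicate 2. With 1 library omitted at a time, the log2 fold change of miR-501-3p ran from -0.00438 to 0.60, that of miR-362-3p from -0.0535 to 0.44 and that of the non-member miR-188-3p from -0.0155 (without treated replicate 3) to 0.38. The members' median ran from 0.07 to 0.51 over these and from 0.25 to 0.37 over the other alternatives. miR-501-5p and miR-188-5p were not tested with filterByExpr. For all tested miRNAs, 21 passed upward and 5 downward with all libraries. Upward there were 6 with limma-voom and 9 with the replicate block, and downward 2 with filterByExpr, 3 with limma-voom, 3 with DESeq2's Wald test and 8 with library totals. With a library left out there were 7 to 29 upward, namely 8, 7 and 9 without 2VO replicates 1, 2 and 3 and 9 without treated replicate 2, and 2 (without 2VO replicate 2) to 5 downward. The cause was not tested. Same-numbered libraries had correlations of -0.121, 0.00917 and 0.297 between their deviations from the group means. The replicate numbers were those of the titles, and the library code of 2VO replicate 3 carries a different number. Differently numbered libraries were not compared, so these values cannot settle whether the replicate numbers pair the libraries. Depth limits miR-501-5p and miR-188-5p, with at most 6 counts per library.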
